A study of Mus musculus with 12 samples.

Results

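Resting follicular B cells labelled Zfx cko were compared with wild-type follicular B cells at 0 h, before any time in culture with anti-IgM had passed. The comparison takes 4 of the 12 arrays of the study, 2 of Zfx cko cells and 2 of wild-type cells, and covers all 12190 genes that could be tested. The cells were sorted from spleens of male 129SvEv mice aged 8 weeks with a gate for mature follicular cells (B220 present, AA4.1 absent, CD23 high, CD21 intermediate), and both genotypes went through the same sort and the same protocol. The other arrays hold the same genotypes after 2 h or 12 h with 10 µg/mL of anti-IgM, which triggers the B cell receptor by binding it. The letters cko are the only genotype label. Not known are the promoter that drives the deletion, the deleted stretch, the control alleles and whether duplicate arrays hold different mice: the sources used here do not give them. Per the protocols in the labels, RNA was hybridized in duplicate, so a p-value reflects how far these arrays scatter, a spread that may be technical.

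Zfx is an X-linked zinc finger transcription factor that binds promoters of many active genes and is known for supporting self-renewal of stem cells and the maintenance of lymphocytes. The integrated stress response starts when kinases such as GCN2 or PERK phosphorylate the initiation factor eIF2, for instance when amino acids run short or proteins misfold in the endoplasmic reticulum. General translation then slows while the transcription factor ATF4 is made, and ATF4 switches on genes of amino acid supply together with Ddit3, Chac1 and Trib3. The heat shock response is a separate pathway, in which the factor HSF1 binds repeated GAA elements in promoters and switches on cytosolic chaperones.

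Promoters of 4 genes that stood higher in Zfx cko cells carry the letters for which these stress pathways are known, and their 250 bases before the start site are printed to show them. Chac1 lies at chr2:119350992-119351241 on the plus strand and Atf3 at chr1:191183334-191183583 on the minus strand. In both, capitals mark the composite ATF4 and C/EBP motif GATGCAA, which reads TTGCATC here because it lies on the opposite strand. Hspa1b lies at chr17:34959239-34959488 on the minus strand and Dnaja1 at chr4:40722218-40722467 on the plus strand, and there capitals mark GAANNTTC, the inverted pair of GAA elements of heat shock promoters. Sequences and coordinates are those of RefSeq on GRCm38.p6, written 5′ to 3′ along the gene.
Chac1: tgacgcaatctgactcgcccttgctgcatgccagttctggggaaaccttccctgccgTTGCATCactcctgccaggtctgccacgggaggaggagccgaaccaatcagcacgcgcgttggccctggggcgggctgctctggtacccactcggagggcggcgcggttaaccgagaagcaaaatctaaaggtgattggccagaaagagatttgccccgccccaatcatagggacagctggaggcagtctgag
Atf3: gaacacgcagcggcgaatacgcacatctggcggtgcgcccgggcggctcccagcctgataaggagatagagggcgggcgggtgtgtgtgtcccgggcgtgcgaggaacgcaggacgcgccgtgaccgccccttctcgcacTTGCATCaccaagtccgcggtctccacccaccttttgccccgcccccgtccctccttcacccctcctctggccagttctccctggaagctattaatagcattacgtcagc
Hspa1b: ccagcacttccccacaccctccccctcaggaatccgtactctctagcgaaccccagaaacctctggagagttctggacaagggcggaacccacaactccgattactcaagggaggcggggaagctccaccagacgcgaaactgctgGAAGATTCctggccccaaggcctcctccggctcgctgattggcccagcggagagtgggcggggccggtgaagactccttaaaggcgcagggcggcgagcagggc
Dnaja1: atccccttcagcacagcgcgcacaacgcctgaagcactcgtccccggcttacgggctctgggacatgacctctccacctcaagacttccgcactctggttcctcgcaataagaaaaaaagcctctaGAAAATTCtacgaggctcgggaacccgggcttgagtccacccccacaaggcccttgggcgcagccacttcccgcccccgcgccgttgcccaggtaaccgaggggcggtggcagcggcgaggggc
The motif began 193 bases before the start in Chac1 and 110 bases before it in Atf3. The heat shock letters began 104 bases before the start in Hspa1b and 124 bases before it in Dnaja1. A match is a description of the letters and not of binding.

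The cells of both genotypes differed in level across a large share of the genome. In Zfx cko cells 1983 genes (16.3% of those tested) rose and 1955 (16% of those tested) fell relative to wild type, 3938 or 32.3% in all, by limma at a Benjamini-Hochberg adjusted p under 0.05 over the 12190 genes. An unadjusted p under 0.05 was reached by 5040 genes. Most differences were small, since 2034 of the called genes differed by less than 1.5-fold, and only 684 (5.61%) were at least 2-fold apart, 280 higher (2.3%) and 404 lower (3.31%). Changes of 4-fold or more were 7 rises and 30 falls. The median difference over all genes was 0.02 on the log2 scale, with quartiles at -0.29 and 0.32. The arrays of the genotypes did not overlap in 7838 genes, or 64.3%. Of the 3938 called genes 3937 had no overlap, so a lack of overlap adds little to a call. Of 2281 called genes with several probe sets, 48.2% had all of them on the same side.

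**Figure D1:**
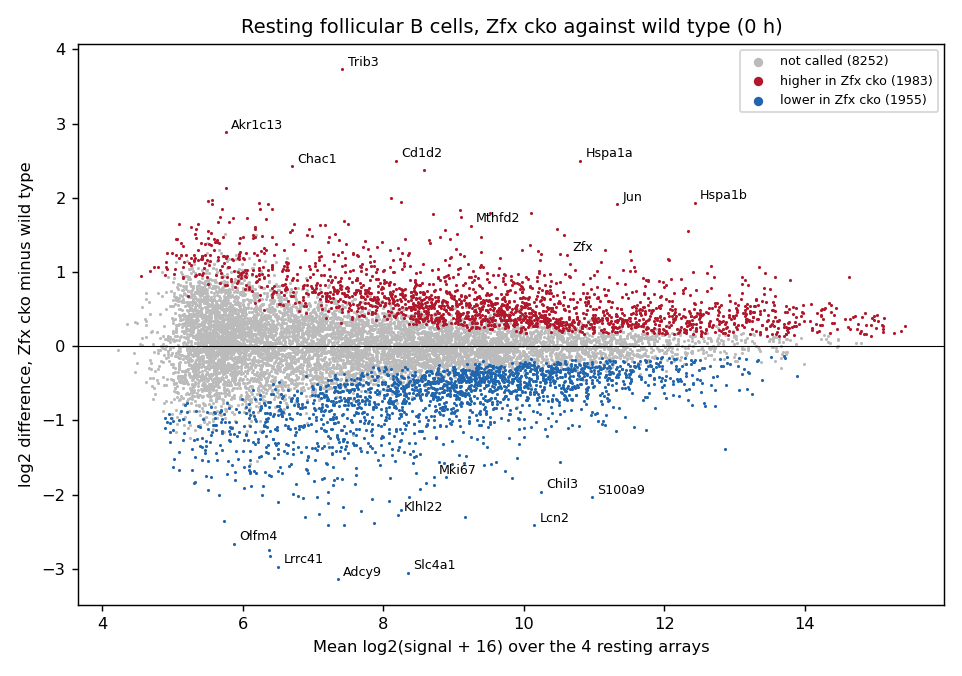
Each point is 1 of 12190 genes, placed by its mean log2(signal + 16) over the 4 resting arrays on the x axis and by the log2 difference of Zfx cko minus wild type on the y axis. The 1983 genes called higher are red, the 1955 called lower are blue and the rest are grey, and the named genes run from Trib3 at 3.73 to Adcy9 at -3.14.

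Array quality was close within genotypes and not the same between them. Replicates correlated at r = 0.977 across probe sets for Zfx cko and 0.980 for wild type, against 0.955 to 0.956 between genotypes. The ratio of the 5′ to the 3′ control probe set of actin was 1.99% and 1.80% in Zfx cko and 3.27% and 3.33% in wild type, and that of Gapdh was 1.58% and 1.54% in Zfx cko and 2.62% and 2.42% in wild type. These ratios, which fall when RNA is shorter or amplified less fully, moved with genotype for every gene below, and their part in the differences was not tested. Signals here are linear intensities, and a value after a gene's name is its log2 difference ± SE, Zfx cko minus wild type, on the log2(signal + 16) scale, with n = 2 arrays per genotype. That scale understates the change of dim genes. Counts of called list members below stand against 32.3% of all genes called, 16.3% higher and 16% lower. The rule for testing was a mean over all 12 arrays above a signal of about 19.2, so a dim gene could pass through the genotype in which it was bright.

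The Zfx probe sets did not show a loss of signal. The brightest read 2189 and 2618 in Zfx cko cells and 983 and 1041 in wild-type cells, a rise of 1.23 ± 0.09 (limma adjusted p = 6.29e-07) with no overlap. Another probe set read 179.5 and 155.7 in Zfx cko and 79.6 and 137.4 in wild type, and the remaining tested one read 82.8 and 22.5 in Zfx cko and 61.4 and 83.8 in wild type, neither of them called. Averaged over its probe sets the difference was 0.44 and was no longer called. Where the deleted exons lie relative to these probe sets is not stated, so the array does not check the genotype. Of the related genes Zfy1, Zfy2 and Zfp711, 0 were among the genes tested. Of the 10 protein-coding genes nearest to Zfx on the X chromosome, 5 each way, 5 were tested and 0 were called, with differences between -0.05 and 0.38 that include Eif2s3x (-0.05 ± 0.08), a subunit of eIF2 itself. Xist read 70.2 and 73.8 in Zfx cko and 31.2 and 36.2 in wild type (0.83 ± 0.20), both low signals.

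The largest rise of all was in Trib3, a pseudokinase induced by ATF4 that dampens its own pathway. It read 589 and 621 in Zfx cko cells and 60.2 and 12.7 in wild-type cells, a fold of 13.3 (3.73 ± 0.53, limma adjusted p = 0.000143). Its other probe set was also higher but by less, with 228 and 200 in Zfx cko and 61.1 and 56.6 in wild type (1.62 ± 0.23). The fold of 13.3 holds for the brightest probe set only. Chac1, an enzyme that breaks down glutathione, read 194 and 260 in Zfx cko and 30.5 and 27.3 in wild type, a fold of 5.36 (2.42 ± 0.25, limma adjusted p = 9.71e-06). The heat shock proteins Hspa1a (2.50 ± 0.21) and Hspa1b (1.94 ± 0.10) and the AP-1 subunit Jun (1.91 ± 0.10) were also among the 20 largest rises. The others without a place in those pathways included Akr1c13, an aldo-keto reductase, with 119 and 143 in Zfx cko and 6.0 and 2.1 in wild type, the lipid-presenting Cd1d2 (2.50 ± 0.25), the interleukin 15 receptor chain Il15ra (1.91 ± 0.37), the PI3 kinase subunit Pik3r3 (1.85 ± 0.32), the kinase Pkn3 (1.85 ± 0.28) and Tlr1 (1.80 ± 0.21), which pairs with TLR2 to sense bacterial lipopeptides. Ankrd24, Crisp3, Zdhhc11, Lhpp, Sash1, Chrna7, Fhit, Ypel2 and Leprotl1 completed the 20, between 1.80 and 2.38. The call on Lhpp was lost without Zfx cko replicate 1 (1.81) or wild-type replicate 2 (1.88), and that on Sash1 with a pseudocount of 1 (2.57). All 7 of the 20 that had several probe sets past the filter had them on the same side, though averaging them made Jun (1.16), Ankrd24 (1.08), Il15ra (1.02) and Leprotl1 (0.95) over 1.5 times smaller.

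Part of the integrated stress response was higher in Zfx cko cells. Of 26 tested members of the list 11 rose, 1 fell and 14 were not called, with a median of 0.45 beside 0.02 over all genes. The transcription factor Atf4 read 2066 and 2184 in Zfx cko and 1455 and 1339 in wild type (0.60 ± 0.06, limma adjusted p = 7.24e-06). Its partner Ddit3, known as CHOP and a promoter of cell death under lasting stress, read 1812 and 1763 in Zfx cko and 818 and 757 in wild type (1.17 ± 0.09). Atf3, an induced repressor, read 381 and 406 in Zfx cko and 150 and 128 in wild type (1.40 ± 0.12). In all 3 factors the groups were clearly apart. Asns, which makes asparagine, read 765 and 726 in Zfx cko and 290 and 339 in wild type (1.21 ± 0.10, limma adjusted p = 1.32e-06). Its other probe set was higher by 0.42 ± 0.10. The translation repressor Eif4ebp1 (0.84 ± 0.07), the mTORC1 inhibitor Ddit4 (0.78 ± 0.08), the alanine aminotransferase Gpt2 (0.73 ± 0.18) and Slc3a2 (0.52 ± 0.06), the shared heavy chain of several amino acid carriers, also rose. The member that fell was Eif2ak4 (-0.64 ± 0.20), which encodes the amino acid sensing kinase GCN2, and the leucine sensor Sesn2 was not called (0.32 ± 0.25). The call on Gpt2 was lost without wild-type replicate 1 (0.57), and that on Eif2ak4 without Zfx cko replicate 2 (-0.53) or wild-type replicate 2 (-0.44). With probe sets averaged per gene the calls on Gpt2 (0.46) and Eif2ak4 (-0.38) were also lost, and Eif4ebp1 was 0.45.

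Enzymes that make serine and feed its carbon into folate rose in 6 of 10 tested, and 0 fell (median 0.54). Mthfd2, the mitochondrial folate enzyme of dividing cells, read 1028 and 1065 in Zfx cko and 324 and 335 in wild type (1.62 ± 0.09, limma adjusted p = 8.3e-08), a fold of 3.07. Its other probe set was higher by 0.82 ± 0.12. The serine biosynthesis enzyme Psat1 read 2808 and 2878 in Zfx cko and 1342 and 1584 in wild type (0.96 ± 0.07), again with no overlap. Shmt1 (1.26 ± 0.37) and Mthfd1 (0.64 ± 0.12), cytosolic enzymes of the same cycle, were called as well. The call on Shmt1 was lost without Zfx cko replicate 1 (1.11) or wild-type replicate 2 (0.37), it was 2.15 without wild-type replicate 1, and it rested on a wild-type reading of 63.0 in 1 array and 7.0 in the other. Averaging probe sets ended the call on Mthfd1 (0.25) and gave 0.84 for Shmt1. Of the 13 amino acid carriers 5 rose and 1 fell, 46.2% called beside 32.3% of all genes (median 0.23). Slc1a4 (0.81 ± 0.23), a carrier of alanine, serine and cysteine, led the rises, which included the arginine and lysine carrier Slc7a1 (0.45 ± 0.06). The Slc1a4 call was lost without Zfx cko replicate 2 (0.53) or wild-type replicate 1 (0.55), and without either of Zfx cko replicate 2 and wild-type replicate 2 only 3 carriers were called higher. Of the 19 synthetases that load amino acids onto tRNAs 10 rose and 2 fell (median 0.27). Those for cysteine, Cars (1.24 ± 0.22), alanine, Aars (0.91 ± 0.09), methionine, Mars1 (0.74 ± 0.08), and leucine, Lars (0.61 ± 0.07), changed most. With probe sets averaged per gene that median was 0.08, and Aars was 0.60.

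**Figure D2:**
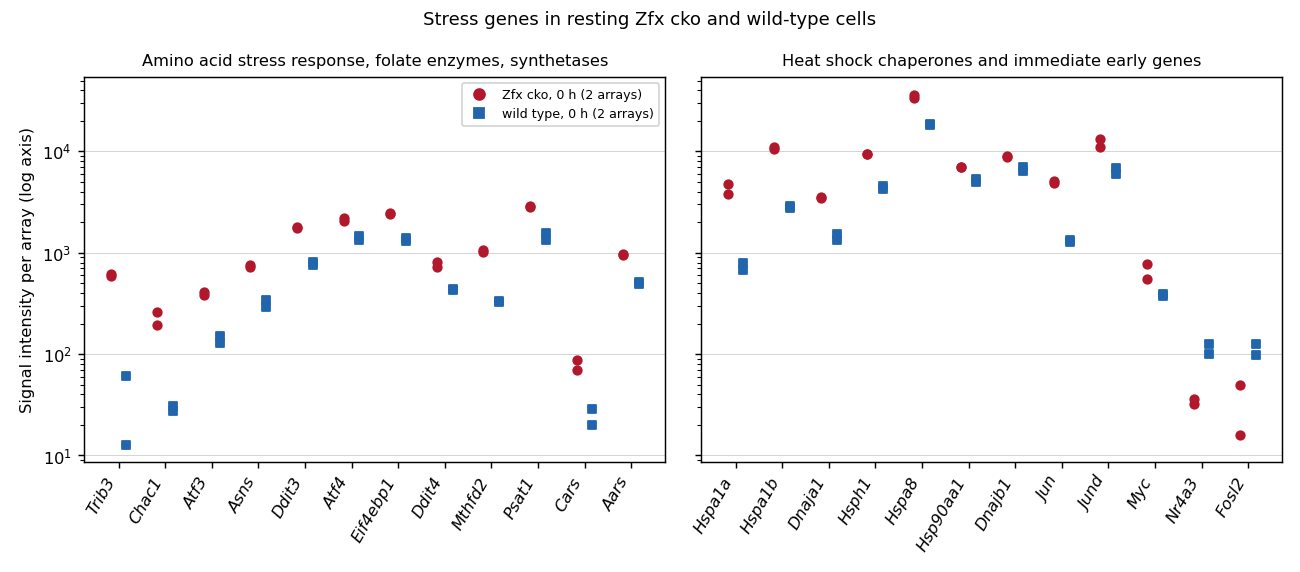
Signal intensity on each array, on a log axis, for genes of amino acid stress, folate metabolism and tRNA loading (left panel) and for heat shock chaperones and immediate early genes (right panel), with the 2 Zfx cko arrays as red circles to the left of the 2 wild-type arrays as blue squares. Trib3 shows the widest gap, with 589 and 621 in Zfx cko against 60.2 and 12.7 in wild type, while Nr4a3 and Fosl2 lie lower in Zfx cko.

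Chaperones of the heat shock response rose in 11 of 17 tested in Zfx cko cells, across a wide range of levels, and 1 fell (median 0.39). The list holds the mitochondrial chaperones Hspd1 and Hspe1 besides cytosolic ones. Hspa1a read 3777 and 4767 in Zfx cko and 682 and 795 in wild type, a fold of 5.66 (limma adjusted p = 1.95e-06), and Hspa1b read 10582 and 11042 in Zfx cko and 2734 and 2892 in wild type, a fold of 3.83 (limma adjusted p = 5.51e-08). These neighbours are close to identical, also in 98.8% of the 250 promoter bases, and each one's probe sets may read the other's transcript. Their HSP70 partner Dnaja1 (1.29 ± 0.07), the nucleotide exchange factor Hsph1 (1.08 ± 0.06), the constitutive HSP70 Hspa8 (0.93 ± 0.06), the cochaperones Dnajb4 (0.79 ± 0.14) and Dnajb1 (0.39 ± 0.06), the small chaperone Hspb1 (0.73 ± 0.21) and the HSP90 gene Hsp90aa1 (0.44 ± 0.05) rose too. Hspa8 was the brightest of these, with 33994 and 36309 in Zfx cko and 18467 and 18377 in wild type, and 1 of its 4 probe sets lay on the other side. The Hspb1 call was lost without Zfx cko replicate 1 (0.72), Zfx cko replicate 2 (0.74) or wild-type replicate 1 (0.58). Under quantile normalization the median of the list was 0.23, with Hspa8 at 0.54 and Dnajb1 at 0.22. Averaging probe sets made Dnaja1 (0.76) and Hspa8 (0.46) smaller and Hspb1 (1.22), Hsp90aa1 (0.74) and Dnajb1 (0.68) larger.

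Chaperones and export factors of the endoplasmic reticulum, the unfolded protein response, rose in 12 of 24 tested and fell in 2 (median 0.25). Xbp1, whose spliced form is the response's main transcription factor, read 4516 and 4562 in Zfx cko and 2290 and 2476 in wild type (0.93 ± 0.05, limma adjusted p = 1.01e-07). The translocon subunit Sec61b (1.16 ± 0.17), the HSP90 of this compartment, Hsp90b1 (0.73 ± 0.09), Creld2 (0.72 ± 0.07), which helps disulfides form, and the HSP40 member Dnajb9 (0.58 ± 0.07) also rose. The array does not tell the spliced from the unspliced form of Xbp1. Hspa5, the compartment's HSP70, was higher by 0.37 ± 0.05, a call lost under quantile normalization (0.12). Cytosolic proteasome subunits were even, with 8 higher and 8 lower of 28, among them Psmb3 (0.72 ± 0.07) and Psmc4 (-1.22 ± 0.16). Psmb3 was 0.47 under quantile normalization and 0.29 with its probe sets averaged.

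Of 29 immediate early genes, which a lymphocyte makes within minutes of a stimulus, 16 rose and 3 fell in resting Zfx cko cells (median 0.26). Jun read 5079 and 4838 in Zfx cko and 1278 and 1334 in wild type, a fold of 3.76 (limma adjusted p = 6.3e-08). Its other probe set read 708 and 825 in Zfx cko and 573 and 571 in wild type and was not called (0.41 ± 0.16, limma adjusted p = 0.0740 over probe sets), and the mean of both was 1.16. Jund (0.93 ± 0.10) and Fos (0.46 ± 0.07), its AP-1 partners, the MAP kinase phosphatase Dusp4 (0.91 ± 0.12), Klf4 (0.85 ± 0.12), Gadd45b (0.85 ± 0.06), Myc (0.75 ± 0.12) and the small GTPase gene Rhob (0.73 ± 0.13) rose with it. Egr1, a standard readout of receptor signalling, was only slightly higher, with 1950 and 1849 in Zfx cko and 1725 and 1569 in wild type (0.21 ± 0.06, limma adjusted p = 0.0205), and this call was lost without Zfx cko replicate 1 (0.17) or wild-type replicate 2 (0.14). Against the rest, the orphan nuclear receptor Nr4a3 read 36.4 and 32.5 in Zfx cko and 126 and 101 in wild type (-1.35 ± 0.10), and the AP-1 member Fosl2 read 16.1 and 49.1 in Zfx cko and 126 and 98.9 in wild type (-1.48 ± 0.26). Without Zfx cko replicate 1 the Fosl2 value was -0.97, and on the mean of its probe sets it was -0.79 and not called. Of 21 genes of the NF-kB pathway 10 rose and 2 fell (median 0.19). The inhibitors Nfkbie (0.78 ± 0.05) and Tnfaip3 (0.63 ± 0.08) and the surface target Cd83 (0.60 ± 0.06) were higher. Under quantile normalization Cd83 was 0.39 and Fos 0.26. The subunit Relb was lower and read 203 and 205 in Zfx cko and 403 and 394 in wild type (-0.91 ± 0.10).

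Interferon-stimulated genes, which restrict viral RNA, rose in 11 of 22 tested and fell in 1 (median 0.46). Ifit1, a sensor of foreign RNA caps, read 241 and 235 in Zfx cko and 56.5 and 76.0 in wild type, a fold of 3.10 (1.63 ± 0.26, limma adjusted p = 0.000321). Ifit3 (1.26 ± 0.28), Ifit2 (1.24 ± 0.22), Stat2 (1.16 ± 0.38), Rtp4 (1.10 ± 0.22), the tetherin gene Bst2 (0.97 ± 0.24) and Oas1a (0.87 ± 0.13) also rose. Rsad2, the antiviral enzyme viperin, went the other way, with 145 and 161 in Zfx cko and 571 and 395 in wild type (-1.54 ± 0.20). The Stat2 call was lost without any 1 of the 4 arrays (1.04 to 1.28), and its probe sets averaged 0.76. The Bst2 call was lost without Zfx cko replicate 2 (0.87) or wild-type replicate 1 (0.67). Without wild-type replicate 1 only 6 members of the list were called higher.

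Of genes of antigen presentation and costimulation, about as many rose as were not called. Of 12 genes of the MHC class II pathway 7 rose and 0 fell (median 0.28), among them Ifi30, which reduces disulfides of antigens (0.61 ± 0.05), the peptide editors H2-DMb2 (0.41 ± 0.06) and H2-Oa (0.40 ± 0.08), the chain H2-Eb1 (0.38 ± 0.05) and the invariant chain Cd74 (0.33 ± 0.07). Under quantile normalization only 3 were called higher and 1 was called lower, and the calls on H2-Eb1 (0.12) and Cd74 (0.05) were lost, while Ifi30 was 0.37, H2-Oa 0.25 and H2-DMb2 0.21. Averaged over its probe sets H2-DMb2 was 0.20. Of 20 costimulatory and activation molecules 9 rose and 1 fell (median 0.28). The receptor ligand Pdcd1lg2 read 446 and 473 in Zfx cko and 194 and 172 in wild type (1.26 ± 0.17), and the homotypic receptor Slamf1 read 2332 and 2384 in Zfx cko and 1087 and 1079 in wild type (1.11 ± 0.13). Cd274 (0.48 ± 0.10), Cd40 (0.36 ± 0.07, and 0.23 under quantile normalization) and the early activation marker Cd69 (0.36 ± 0.09) rose, Cd86 was not called (-0.02 ± 0.07), and Cd44 fell with 329 and 575 in Zfx cko and 805 and 686 in wild type (-0.75 ± 0.17). The Cd69 call was lost without Zfx cko replicate 2 (0.25) or wild-type replicate 2 (0.30). The Cd44 value was -0.36 without Zfx cko replicate 1 and -1.14 without Zfx cko replicate 2.

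Markers of B cells were bright in both groups. Of 9 tested, 4 rose and 1 fell (median 0.18). Ighd was not among the genes tested. Cd79b, a chain of the receptor's signalling unit, read 22848 and 22438 in Zfx cko and 22327 and 22937 in wild type, and the factor Pax5, which holds B cell identity, was not called (0.19 ± 0.13). Ms4a1, which encodes CD20, differed by 0.19 ± 0.05, a call lost without Zfx cko replicate 1 (0.16), and it was -0.03 under quantile normalization. Ighm, the heavy chain of IgM, read 19004 and 19846 in Zfx cko and 15443 and 15131 in wild type (0.34 ± 0.05), but averaged over its probe sets the difference was -0.82, and under quantile normalization it was 0.04 and not called. The other chain of the signalling unit, Cd79a, read 2431 and 2391 in Zfx cko and 1363 and 1012 in wild type (1.03 ± 0.12, limma adjusted p = 2.12e-05). Of the surface proteins that the sort gate used, CD21 differed most clearly in transcript. Its gene, Cr2, read 7552 and 7837 in Zfx cko and 4406 and 3322 in wild type (1.005 ± 0.15), and Fcer2a, which encodes CD23, was higher by 0.30 ± 0.09. The Fcer2a call was lost without Zfx cko replicate 1 (0.20) or wild-type replicate 2 (0.23), under quantile normalization (0.19), without the intensity trend and with its probe sets averaged (0.31). Of the genes that mark marginal zone cells, which share high CD21, Cd1d1 (0.93 ± 0.16) and S1pr3 (0.95 ± 0.10) were higher while Cd9 (-0.76 ± 0.15) and the Notch target Dtx1 (-0.42 ± 0.07) were lower, 2 each way of 7 tested. Averaging its probe sets ended the S1pr3 call (0.45). Cd93, the AA4.1 antigen of immature cells, read 118 and 123 in Zfx cko and 54.4 and 65.4 in wild type and was not called (0.85 ± 0.42). Of 5 markers of B-1 cells 3 fell and 0 rose (median -0.47), and of 10 markers of T and NK cells 1 rose and 1 fell, a share of 20%.

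Signalling genes next to the B cell receptor fell more often than they rose, 10 against 6 of 28 tested (median -0.12). The share called was 57.1%, beside 32.3% of all genes. The adaptor Dapp1 (-0.59 ± 0.13), the exchange factors Rasgrp1 (-0.58 ± 0.10) and Vav1 (-0.58 ± 0.09), the kinase Prkcb, which passes the signal to NF-kB (-0.51 ± 0.06), and the Src kinase Blk (-0.44 ± 0.05) were lower, and the calcium channel Orai1 was higher (0.71 ± 0.08). Prkcb read 4033 and 4263 in Zfx cko and 5773 and 6022 in wild type, with no overlap. On the mean of probe sets the calls on Vav1 (-0.18) and Rasgrp1 (-0.16) were lost, and without Zfx cko replicate 2 or wild-type replicate 2 the median of the list was -0.00 and -0.02.

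Genes of homing and migration, receptors together with regulators of their signals, split by gene. Of 22 tested, 5 rose and 7 fell, 54.5% called beside 32.3% of all genes (median -0.15). The regulators of G protein signalling Rgs2 and Rgs1, which shorten responses to chemokines, were the largest rises. Rgs2 read 9086 and 8646 in Zfx cko and 2938 and 3077 in wild type (1.55 ± 0.08, limma adjusted p = 4.93e-08), and Rgs1 read 901 and 859 in Zfx cko and 291 and 305 in wild type (1.51 ± 0.20). The lymph node homing receptor Ccr7 was higher by 0.37 ± 0.08. The sphingosine phosphate receptor S1pr4 read 2090 and 2059 in Zfx cko and 4444 and 4432 in wild type (-1.09 ± 0.07), and the integrin chains Itgb1 (-1.39 ± 0.32) and Itga4 (-0.67 ± 0.09) fell. Itgb1 was dim in both groups, at 8.0 and 14.8 in Zfx cko and 52.8 and 58.1 in wild type. Adcy9, an adenylyl cyclase of the cyclic AMP pathway, was the largest fall of all, with 20.2 and 67.2 in Zfx cko and 577 and 380 in wild type (-3.14 ± 0.33, limma adjusted p = 1.16e-05), and 7 of 19 tested genes of that pathway fell while 3 rose.

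Genes of quiescence, which FOXO and KLF factors keep on in resting lymphocytes, fell in 10 of 27 tested and rose in 7 (median -0.06). The share called was 63%, beside 32.3% of all genes. The PI3 kinase inhibitor Pik3ip1 read 507 and 452 in Zfx cko and 995 and 1075 in wild type (-1.09 ± 0.10), but another of its probe sets read 574 and 596 in Zfx cko and 468 and 364 in wild type and was called higher (0.49 ± 0.16, limma adjusted p = 0.0369 over probe sets), and their mean was -0.30. Klf3 (-0.88 ± 0.08) and Foxo3 (-0.87 ± 0.17) were lower as well. Klf4 and the antiproliferative gene Tob1 (0.71 ± 0.15) were higher, and Klf2, which guards quiescence and trafficking, was not called (-0.06 ± 0.09). Averaging its probe sets ended the Klf3 call (-0.39).

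Survival genes, a list that holds Cflar besides members of the BCL2 family, were called near the share of all genes, 33.3% beside 32.3%. Of 9 tested, 2 were higher and 1 was lower. The pro-survival Bcl2l1, which encodes BCL-XL, read 355 and 256 in Zfx cko and 442 and 487 in wild type (-0.60 ± 0.17, limma adjusted p = 0.0174), a call lost without Zfx cko replicate 2 (-0.37) or wild-type replicate 2 (-0.53). Mcl1 was higher by 0.31 ± 0.05, a call lost under quantile normalization (0.03), and Cflar, which blocks caspase 8, was higher by 0.66 ± 0.09. Bcl2 was not called on its brightest probe set (0.14 ± 0.06), but another of its 5 probe sets was called lower, with 200 and 190 in Zfx cko and 410 and 363 in wild type (-0.93 ± 0.23, limma adjusted p = 0.00765 over probe sets). Among 15 death genes 3 rose and 1 fell, a share of 26.7%, with Bmf at 655 and 659 in Zfx cko and 359 and 303 in wild type (0.96 ± 0.13), and Bnip3 lower (-0.82 ± 0.10), while Bcl2l11, which encodes BIM, was not called (-0.06 ± 0.11) and had 1 probe set called lower (-0.42) and 1 called higher (0.45). Averaged over its probe sets Bmf was 0.52. The p53 target and CDK inhibitor Cdkn1a read 175 and 142 in Zfx cko and 96.9 and 123 in wild type (0.47 ± 0.14), a call lost without Zfx cko replicate 1 (0.33) or wild-type replicate 1 (0.32). Averaged over its probe sets Cdkn1a was 0.70.

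The D-type cyclins, which open the cell cycle, differed in direction. Ccnd2, the main one of activated B cells, read 1658 and 1622 in Zfx cko and 1229 and 1299 in wild type (0.37 ± 0.06). Ccnd1 was higher (1.23 ± 0.19), and Ccnd3 read 160 and 155 in Zfx cko and 408 and 462 in wild type (-1.38 ± 0.14). Averaged over probe sets Ccnd1 was 0.74 and Ccnd3 -0.86. Their kinase Cdk4 was lower (-0.51 ± 0.07). Among 24 genes of the G2 phase and mitosis, 9 fell and 3 rose, and the median was -0.61. Mki67, which marks cycling cells, read 209 and 215 in Zfx cko and 791 and 732 in wild type (-1.77 ± 0.39, limma adjusted p = 0.00332), a call lost with a pseudocount of 1 (-1.84). The ubiquitin enzyme of mitosis Ube2c (-1.86 ± 0.27), cyclin Ccnb2 (-1.41 ± 0.32), its kinase Cdk1 (-1.30 ± 0.29), topoisomerase Top2a (-1.06 ± 0.18) and cyclin Ccna2 (-0.97 ± 0.20) were lower, with Top2a at -0.48 on the mean of its probe sets. The 3 rises came to 0 without Zfx cko replicate 2 and to 1 without each wild-type array in turn. Replication genes, with 7 higher and 4 lower of 33, were called at a share of 33.3% and ran between Rfc3 at 1.19 ± 0.17 (0.64 on the mean of its probe sets) and the nucleotide reductase subunit Rrm2, which read 289 and 261 in Zfx cko and 837 and 874 in wild type (-1.58 ± 0.13).

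Transcripts of neutrophil granules and of red cells were lower in the sorted Zfx cko cells. Of 10 tested neutrophil genes 8 fell and 0 rose (median -1.35), and their summed signal ran from 8694 to 8713 in Zfx cko and from 24985 to 25541 in wild type. Lcn2, which binds bacterial siderophores, read 460 and 493 in Zfx cko and 2739 and 2489 in wild type (-2.42 ± 0.11, limma adjusted p = 3.33e-08). S100a9 (-2.04 ± 0.09), Chil3 (-1.96 ± 0.10), Prtn3 (-1.78 ± 0.25), S100a8 (-1.38 ± 0.09), Camp (-1.32 ± 0.10), Ltf (-1.27 ± 0.29) and Ngp (-0.92 ± 0.09) fell too. S100a8 still read 4664 and 4524 in Zfx cko, against 11850 and 12117 in wild type. Elane (-0.36 ± 0.30) and Mpo (0.17 ± 0.36), granule enzymes of earlier precursors, were dim in all 4 arrays and not called. In a bulk sample, fewer cells of a type and less of their RNA per cell cannot be told apart.

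All 5 tested erythroid genes fell, with a median of -1.34 and a summed signal of 397 and 471 in Zfx cko and 1812 and 2110 in wild type. The anion exchanger Slc4a1 read 84.6 and 111 in Zfx cko and 865 and 988 in wild type (-3.06 ± 0.20, limma adjusted p = 2.6e-07), the second largest fall of all. The carbonic anhydrases Car1 (-2.03 ± 0.34) and Car2 (-1.34 ± 0.18), the haem enzyme Alas2 (-1.32 ± 0.17) and the surface protein Ermap (-1.20 ± 0.26) were lower as well. The globin genes were not among the genes tested. Of 11 markers of monocytes and macrophages 3 fell and 3 rose, 54.5% called beside 32.3% of all genes. Clec4d (-1.08 ± 0.14) and lysozyme, Lyz2 (-0.63 ± 0.09), were lower. The growth factor receptor Csf1r was higher, at 1547 and 1635 in Zfx cko and 839 and 820 in wild type (0.93 ± 0.11). Of 5 platelet, 3 dendritic and 3 stromal markers tested, 0 were called.

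**Figure D3:**
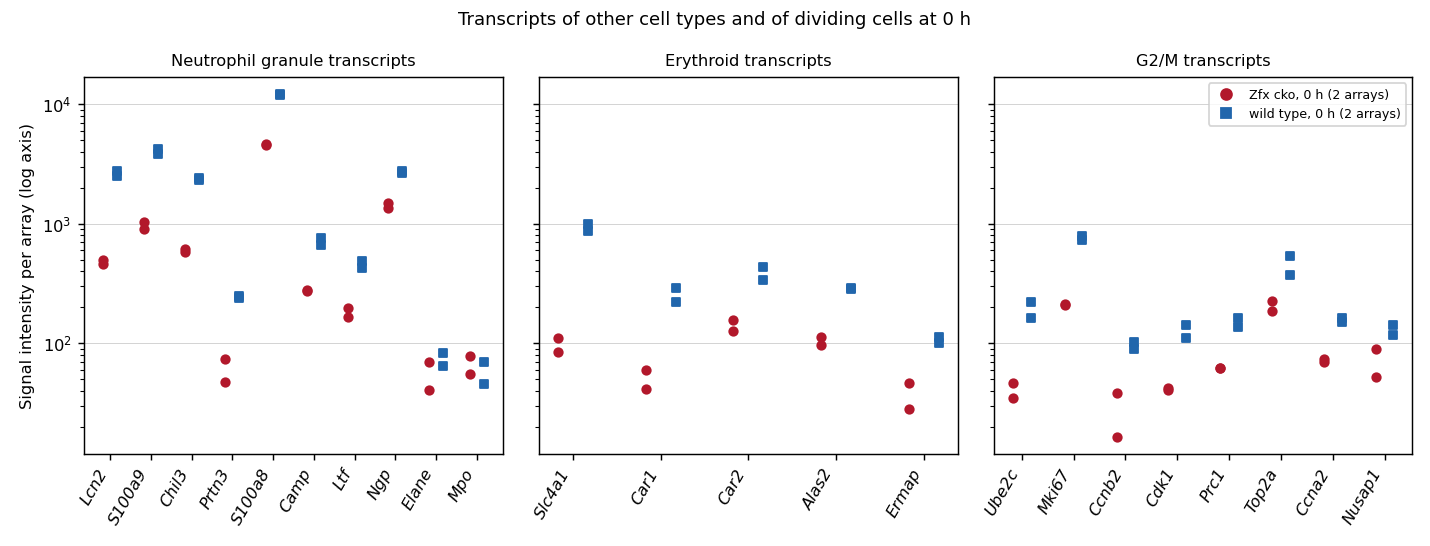
Signal intensity on each array, on a log axis, for neutrophil granule, erythroid and G2/M transcripts, with the 2 Zfx cko arrays as red circles to the left of the 2 wild-type arrays as blue squares. The groups are apart in all genes drawn except Elane and Mpo, and S100a8 still reads 4664 and 4524 in Zfx cko.

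The 20 largest falls held several of these transcripts. Besides Slc4a1 and Lcn2 they included Olfm4 (-2.66 ± 0.32), a protein of neutrophil granules, and Cyp4f18 (-2.30 ± 0.15), which degrades leukotriene B4 in neutrophils, with Lrg1 (-2.26 ± 0.34) and Chil1 (-2.11 ± 0.51). The Chil1 call was lost without Zfx cko replicate 1 (-1.21). The share of the granule signal in these falls was not tested. Others have known roles in most cells, such as Cgas, which senses cytosolic DNA, with 113 and 53.6 in Zfx cko and 371 and 484 in wild type (-2.21 ± 0.30), the cullin adaptor Klhl22 (-2.27 ± 0.12), the mitochondrial phosphatase Ptpmt1 (-2.16 ± 0.13), the exosome nuclease Dis3l (-2.30 ± 0.32) and Eid2, an inhibitor of differentiation (-2.74 ± 0.33). Lrrc41 fell to 17.3 and 15.5 in Zfx cko, against 223 and 257 in wild type (-2.98 ± 0.17). Apol11b, Cldn13, Cep170b, Ifitm6, Gpr180, Zfp783 and Rcn2 completed the 20, with differences between -2.83 and -2.08. All 5 that had several probe sets had them on the same side, though averaging them gave -1.13 for Cgas, -1.23 for Zfp783 and -2.01 for Adcy9.

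Housekeeping lists moved by small steps in many members. Subunits of oxidative phosphorylation were called in 26 of 34, 18 higher and 8 lower (median 0.17), with the complex I subunits Ndufc1 at 4637 and 4611 in Zfx cko and 2418 and 2556 in wild type (0.89 ± 0.05) and Ndufa5 (0.84 ± 0.08, and 0.39 on the mean of its probe sets) the largest. Ribosomal protein genes rose in 13 of 24 and fell in 3 (median 0.16), and ribosome biogenesis genes rose in 11 of 29 and fell in 2 (median 0.24). Glycolytic enzymes rose in 5 of 14 and fell in 1, a share of 42.9%. Enzymes of sterol synthesis rose in 8 of 19 and fell in 2, a share of 52.6%, with a median of 0.01. Under quantile normalization the median of the oxidative phosphorylation list was 0.07. Ribosomal protein genes were bright, with a summed signal of 471293 and 475339 in Zfx cko and 403582 and 413106 in wild type. Some other bright genes lost most of their rise under quantile normalization, such as Ighm (0.34 to 0.04) and Cd74 (0.33 to 0.05). How far the ribosomal median moved is not given here. Antioxidant genes of the NRF2 pathway, with 4 higher and 3 lower of 20, p53 pathway genes, with 5 higher and 3 lower of 20, and B cell transcription factors, with 7 higher and 5 lower of 33, were called at shares of 35%, 40% and 36.4%, beside 32.3% of all genes.

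**Figure D4:**
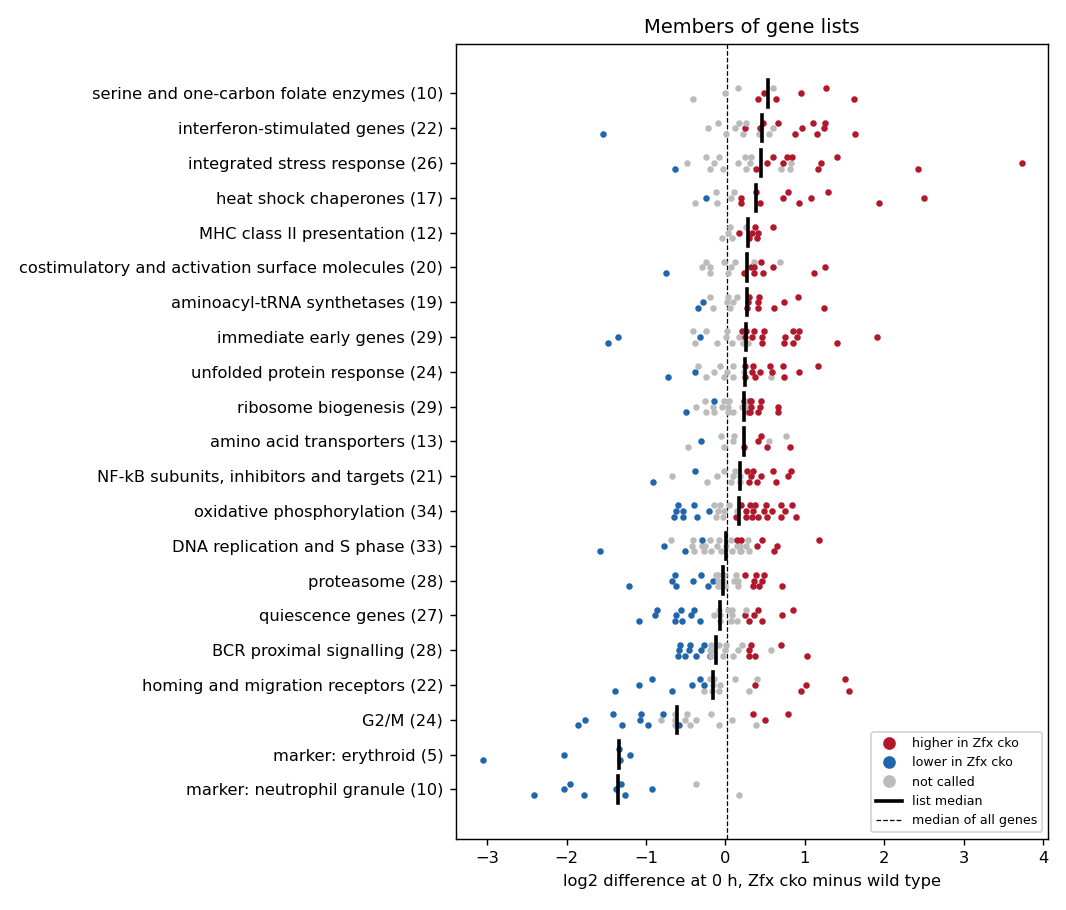
Each point is a tested member of a gene list, at its log2 difference of Zfx cko minus wild type at 0 h, red where called higher, blue where called lower and grey where not called, with a black bar at the list median and a dashed line at the median of all genes (0.02). The number of tested members stands in parentheses, and medians run from -1.35 for neutrophil granule genes to 0.54 for the folate enzymes.

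The motif counts over all promoters set the printed sequences in context. Promoters of 300 bases, 250 before and 50 after the start, were found for 9885 of the genes tested, and both strands were read. GATGCAA stood in 2.46% of them, in 2.92% of the genes called higher (48 of 1644) and in 2.09% of those called lower (34 of 1624). It stood in 5.53% of those at least 2-fold higher in Zfx cko (13 of 235), 2.89% of those at least 2-fold lower (10 of 346), and 5 of 24 integrated stress response genes. GAANNTTC, a motif chosen after the data were seen, stood in 7.07% of tested promoters and in 8 of 15 heat shock chaperone promoters. The 8 include the near-identical Hspa1a and Hspa1b. It stood in 6.87% of the genes called higher and 7.27% of those called lower. Both lists were made from general knowledge of these pathways and count members whatever their call. Their motif shares therefore do not bear on the genotype difference. AGGCCT, the core that ZFX is known to bind and a palindrome, stood in 12.7% of tested promoters, in 12.7% of those called higher and in 12.8% of those called lower. Among genes at least 2-fold apart it stood in 10.6% of the higher and 15.0% of the lower ones. Hspa1b carried both AGGCCT and GAANNTTC, at separate places. The absence of a motif says only that the letters are not in this window.

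The genotype difference at rest carried over in part to cells that had been with anti-IgM for 2 h. Of the 3938 genes called at rest, 1760 were also called at 2 h (44.7% of the genes called at rest and 50.7% of the 3469 called at 2 h, which are 28.5% of those tested). The comparisons at rest and at 2 h share no arrays. They were higher at both times in 568, lower at both in 780, higher at rest and lower at 2 h in 269, and the reverse in 143. Across genes the differences at rest and at 2 h correlated at r = 0.34, as a description over 12190 genes that are not independent replicates. Of the 20 largest rises 8 were still called higher at 2 h, and of the 20 largest falls 18 were still lower. Choosing these genes by their size at 0 h favours a smaller difference at 2 h. The ratios of the control probe sets did not keep their order. At 2 h actin 5′ to 3′ was 10.6% and 10.8% in Zfx cko and 8.51% and 8.41% in wild type. It was thus lower in Zfx cko at rest and higher in Zfx cko at 2 h. The arrays also divided by time. The 18S control probe set read 7124 and 7553 in Zfx cko and 6636 and 7305 in wild type at rest. At 2 h it read 1022 and 1085 in Zfx cko and 1299 and 1262 in wild type. A change between the times cannot be told apart from this division of the arrays.

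Trib3 was 3.54 ± 0.53 and Chac1 2.53 ± 0.25 at 2 h, with no called interaction (limma adjusted p = 0.900 and 0.875), and 12 of 26 integrated stress response genes were called higher and 1 lower. The interaction of genotype and time, called for 20.4% of all genes (8.59% positive and 11.8% negative), was called for 11 of 17 chaperones. Hspa1a differed by 0.35 at 2 h and was not called (interaction limma adjusted p = 0.000204), and Jun by 0.10 (interaction limma adjusted p = 2.9e-06). Both were named for their large 0 h rises. The interaction contains that 0 h difference, so this choice favours a negative interaction. Xbp1 was -0.10 at 2 h (interaction limma adjusted p = 1.9e-06). The inhibitors Nfkbie (-0.18) and Tnfaip3 (-0.35) and the AP-1 gene Jund (-0.61) were lower in Zfx cko at 2 h, with called interactions. Neutrophil granule genes had a median of -2.45 at 2 h and erythroid genes one of -1.37.

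**Figure D5:**
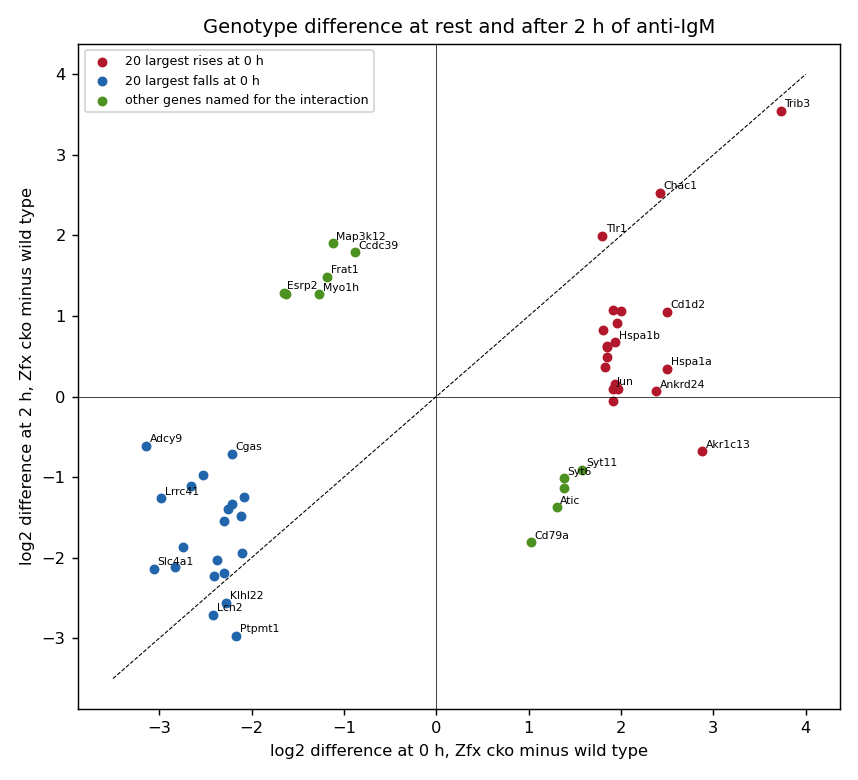
The log2 difference of Zfx cko minus wild type at 0 h (x axis) and after 2 h of anti-IgM (y axis) for the 20 largest rises (red), the 20 largest falls (blue) and the other genes named for the interaction (green), with equality as a dashed line. Zfx is not drawn. Trib3 and Chac1 lie near the line, Hspa1a, Hspa1b and Jun lie below it, and the green genes drawn lie on opposite sides of 0 at the 2 times. Their choice, by the largest interactions among genes called at 0 h, favours that position. The red and blue genes were chosen by their size at 0 h, which favours a smaller difference at 2 h.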

How the data were processed

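Expression was measured on 12 whole-genome mouse arrays. The submitters' processing notes name GCOS 1.4 for summarising them, and each deposited value is the linear signal intensity of 1 probe set on 1 array. The 2% trimmed mean was 250 on each array, as computed here from the values. Neither its algorithm nor detection calls were given. Columns were matched to samples by their identifiers, with 0 left unassigned, and groups come from the titles.

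Signals were taken as log2(signal + 16). Of 45101 probe sets, those with 1 gene symbol (34945) and a mean above the 40th percentile (log2 of 5.14) were kept, 21906 in all, and the brightest stood for its gene. Limma 3.58.1 in R 4.3.3 fitted 1 mean per group on all 12 arrays with an intensity trend (6 residual and 7.29 prior degrees of freedom), with two-sided tests and Benjamini-Hochberg adjustment over 12190 genes at 0.05. The 12 h arrays enter the spread, the filter and the choice of the brightest probe set, which use all 12 arrays, but no difference given here. The number of arrays limits precision.

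Genes named are the 20 largest rises and the 20 largest falls without overlap, leaving out predicted genes, Riken clones and immunoglobulin segments, members of the lists from the largest change down, and a fixed set that includes Zfx. There were 48 lists from general knowledge (898 entries, 781 tested, some shared), and not all are described. The genes, lists and comparison were chosen with earlier results of these data known. Simulated data for the comparison at 0 h had 12190 genes and steps in 200. In them 32% of log2 steps of 0.5 were recovered, 48% of 1, 86% of 2 and 54% of -1, with 10 false calls. The data had 3938 calls. With fewer changed genes the adjustment is stricter, so the simulated shares do not carry over to the data. Alternatives covered scaling, pseudocount, filter, trend, array weights, the arrays fitted, a replicate block, probe set choice, each array left out, and stricter thresholds. Some of the genes to be named are not reported here.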

Additional observations from a re-analysis of the deposited data

Results flagged for a closer look

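The genotype difference was not the same at rest and after 2 h of anti-IgM, which is what picked out the following values, each an interaction on the log2 scale (difference at 2 h minus difference at 0 h) with its limma adjusted p over 12190 genes. In all 2491 genes had a called interaction (20.4%), of them 1047 positive and 1444 negative. Besides Zfx, the genes below are the 6 largest interactions each way among genes called at 0 h whose arrays did not overlap. Predicted genes, Riken clones and immunoglobulin segments were left out. Since the interaction contains the 0 h difference, this choice favours genes whose difference turned between the times. The ratio of the 5′ to the 3′ control probe sets differed between genotypes in opposite directions at the 2 times, and its part was not tested.

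Interactions toward a higher level in Zfx cko at 2 h were called for the kinase Map3k12 (3.02, adjusted p = 9.56e-05), the splicing factor Esrp2 (2.94), the lectin Cd302 (2.90), Ccdc39 (2.67), Frat1 (2.66) and Myo1h (2.54). At 0 h Map3k12 read 117 and 115 in Zfx cko and 287 and 257 in wild type, and at 2 h it read 179 and 161 in Zfx cko and 25.9 and 43.2 in wild type. The 0 h difference of Frat1 (-1.18) was no longer called without Zfx cko replicate 2 (-0.54) or either wild-type array. Those of Ccdc39 and Myo1h were lost without 1 array as well (-0.92 to -0.72 for Ccdc39 and -1.15 to -1.11 for Myo1h where lost).

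Interactions toward a lower level in Zfx cko at 2 h were called for Akr1c13 (-3.56, adjusted p = 0.000278), Cd79a (-2.84, adjusted p = 2.28e-07), the purine synthesis enzyme Atic (-2.68, adjusted p = 5.38e-08), the histone chaperone Hira (-2.51), Syt11 (-2.49) and Syt6 (-2.40). Atic read 1603 and 1514 in Zfx cko and 615 and 630 in wild type at 0 h, and 753 and 877 in Zfx cko and 2003 and 2276 in wild type at 2 h. Zfx itself had an interaction of -0.91 (adjusted p = 0.000237). With probe sets averaged per gene the interactions of Zfx (-0.21), Hira (-1.16) and Syt11 (-0.47) were not called. The 0 h differences of Hira and Syt6 were lost without 1 array (1.26 to 1.39 for Hira and 1.22 to 1.29 for Syt6 where lost). On the mean of probe sets the 0 h differences were 0.86 for Atic, against 1.30 on the brightest, and 0.59 for Hira and 0.32 for Syt11, the last pair no longer called.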

How the results depend on the processing

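The 3938 genes called at rest were 3038 to 4097 under the changes of scaling, pseudocount, filter, trend, array weights, arrays fitted and mean of probe sets that were run, and 2876 to 3042 with 1 array left out. Counting every probe set gave 7212 calls (3600 higher, 3612 lower), requiring 2-fold gave 684 (280 higher, 404 lower), and an adjusted p under 0.01 gave 2485 (1252 higher, 1233 lower). For the interaction the mean of probe sets gave 1594, every probe set 4389, 2-fold 599 and an adjusted p under 0.01 gave 1335, beside 2491. The replicate numbers did not pair the arrays, since deviations of same-numbered arrays correlated at 0.0052 (range -0.013 to 0.025 over 15 pairs of groups). With the replicate block 3916 genes were called at rest and 2465 for the interaction. Median scaling gave 2101 higher and 1778 lower. Of 189 named genes 178 were called. Of these, 141 kept their call under each of the 17 alternatives at 0 h that tested them, and 37 lost it under at least 1. The filter at the 60th percentile tested only 158 of the 189, so the rest were not tried there. A fit of only the compared arrays ended the 0 h calls on Bst2, Ccdc39, Cd9, Cdkn1a, Egr1, Frat1, Shmt1, Slc1a4 and Xist. The fit without the intensity trend ended those on Bcl2l1, Cdkn1a, Egr1, Fcer2a, Frat1, Lhpp, Ms4a1, Shmt1 and Stat2. Of the 178 called genes, 39 moved by over 1.5 times or changed sign on the mean of probe sets (28 still called), 31 moved so with a pseudocount of 64 and 9 with a pseudocount of 1, and 16 under quantile normalization (9 still called). The sign turned for Bcl2 on the mean of probe sets (-0.051), for Ighm on the same mean (-0.82), for Ms4a1 under quantile normalization (-0.033), for Cd79b under quantile normalization (-0.19) and for Cd86 under quantile normalization (0.0056) and median scaling (0.00078). Eif2s3x was 0.21 on the mean of probe sets. With 1 array left out, Bcl2l11 ran from -0.28 to 0.17, Cd79b from -0.019 to 0.020, Cd86 from -0.079 to 0.033, Eif2s3x from -0.13 to 0.016 and Mpo from -0.055 to 0.40. The cause of these changes was not tested. A left-out array leaves 1 in its group, taken to vary as the other groups do.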
